A study of Mus musculus with 6 samples.

Results

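In each of 6 libraries of *Tcra* transcripts, the *Traj* usage of productive rearrangements was compared with that of unproductive rearrangements from the same cells. A sequence was kept when its V assignment listed the target gene of the library (*Trav19* or *Trav9d-3*, or in the last amplicon *Trav11* or *Trav11d*) and its J assignment named a single *Traj* gene. It was then placed in 1 of 2 classes by the functionality text in the deposited list. Of 3675237 sequences in the 6 lists, 1750679 (47.6%) were kept. In the *Trav9* lists most sequences belonged to other members of that family, so 265603 of 1587280 WT sequences and 147919 of 739330 SKG sequences were kept.

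The cells were pre-selection double-positive (DP) thymocytes, which carry CD4 and CD8 but neither CD69 nor CD5, sorted from WT BALB/c mice and from SKG mice. SKG mice carry a spontaneous point mutation of *Zap70*, the kinase that relays T cell receptor signals, on the BALB/c background. There was 1 library for each of 3 amplicons in each of 2 genotypes, and the number of mice behind a library is not given in the sources used here. RNA was reverse transcribed before amplification according to the methods and the protocol, although the labels name genomic DNA as the molecule. Genotypes were not compared. Both classes came from the same library, so each library was its own pair and n was 6. Whether the 3 amplicons of a genotype came from the same cells is not stated, so the 6 libraries may not be independent.

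The T cell receptor α-chain locus joins 1 of many V segments to 1 of many J segments by cutting and imprecise rejoining of DNA. A join that stays in frame and holds no stop codon is called productive, and any other join is called unproductive. Only a productive chain can reach the cell surface and be tested in positive selection. A cell can rearrange the same allele again, moving to V genes farther upstream and to *Traj* segments farther downstream, and both alleles can rearrange. High *Traj* numbers lie nearest the V genes and are called proximal here, and low numbers lie nearest the constant gene. Segments 1 to 30 are called distal.

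Some germline segments named in the comparison are printed below. They were read 5′ to 3′ from the plus strand of chromosome 14 of the NCBIM37 assembly and named through the RefSeq table. That assembly is a C57BL/6 reference and not BALB/c. Capitals mark the 4 codons of the Phe/Trp-Gly-X-Gly motif within the joining region of an α-chain, and in *Traj54* also the stop codons in its frame. *Traj23* and *Traj25* are shown because they were nearly always unproductive. *Traj38*, *Traj17*, *Traj2* and *Traj16* had a productive share on 1 side of the rest in every library. Of these, *Traj38* and *Traj17* are shown because their limma p was lowest, although neither passed after adjustment. *Traj22* and *Traj35* are shown because their productive share differed between amplicons, and *Traj54* as a pseudogene for contrast.
Traj23 (chr14:54815756-54815815): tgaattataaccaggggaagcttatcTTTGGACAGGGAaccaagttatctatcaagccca
Traj25 (chr14:54814490-54814546): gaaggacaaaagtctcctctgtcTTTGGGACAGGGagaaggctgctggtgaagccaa
Traj38 (chr14:54800249-54800310): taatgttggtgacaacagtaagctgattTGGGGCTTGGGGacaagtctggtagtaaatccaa
Traj17 (chr14:54821450-54821512): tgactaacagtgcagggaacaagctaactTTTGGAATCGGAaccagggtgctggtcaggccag
Traj22 (chr14:54816923-54816982): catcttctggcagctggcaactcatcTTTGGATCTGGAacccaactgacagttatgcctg
Traj35 (chr14:54803449-54803513): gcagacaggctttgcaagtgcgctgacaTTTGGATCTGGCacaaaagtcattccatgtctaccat
Traj54 (chr14:54781665-54781718): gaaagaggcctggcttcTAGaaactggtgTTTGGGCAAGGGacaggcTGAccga

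Each of these segments is an exon of the locus followed by the bases GT of the splice donor. Of the 49 *Traj* segments seen, 48 were placed in the annotation. Among the 44 placed segments with at least 50 sequences in 1 library, 42 had the motif in a single frame and 0 of those 42 held a stop codon in that frame. The reading frame of *Traj23* was open from end to end, as was that of *Traj25*. The pseudogene *Traj54* held 2 stop codons in its frame and was rare, with 2 productive sequences of 12.

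Productive sequences were the larger class in all 6 libraries. These are shares of distinct transcript sequences, and the productive share of rearranged alleles was not measured. WT *Trav19* had 234415 productive and 187762 unproductive sequences (55.5% productive) and SKG *Trav19* had 252048 and 138683 (64.5%). WT *Trav9d-3* had 162142 and 103461 (61.05%) and SKG *Trav9d-3* had 103662 and 44257 (70.1%). WT *Trav11* had 137708 and 111758 (55.2%) and SKG *Trav11* had 152879 and 121904 (55.6%). With these totals, 3 sequences made up 0.00119% to 0.00289% of a library's productive sequences and 0.00160% to 0.00678% of its unproductive sequences, the lowest share read here. Intervals below are 95% Wilson intervals for a share and Newcombe intervals for a difference between shares, and they and these floors cover counting error only. A rearrangement can appear in a list several times if copies carry errors. Whether such a copy stayed in the class of its rearrangement, productive or unproductive, was not tested. The variance of the productive share over segments was 115.5 to 259.1 times that of binomial counting around the share of the library. This ratio takes in any difference between segments, *Traj23* included, and does not measure such copies.

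Counted as distinct sequences, productive and unproductive rearrangements used largely the same *Traj* segments within a library. A copy with errors that changed class would keep its segment, and how far such copies add to this likeness was not tested. In WT *Trav19* the 3 leading segments were *Traj56*, *Traj57* and *Traj53* in both classes, at 18.7%, 16.7% and 7.77% of productive sequences and 21.6%, 14.7% and 10.2% of unproductive sequences. In SKG *Trav19* the productive class had the same 3, at 20.01%, 12.46% and 8.29%, while *Traj58* (8.21%) took the third place in the unproductive class after *Traj56* (22.1%) and *Traj57* (14.5%). These segments all lie in the proximal stretch of the locus.

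*Trav9d-3* sequences were spread over the whole locus. *Traj4* led both classes, with 5.79% of productive and 6.32% of unproductive WT sequences and 5.98% and 5.12% of SKG sequences. *Traj15* came second in the productive class of both libraries, at 4.86% in WT and 5.08% in SKG, whereas *Traj12* came second in the unproductive class, at 4.97% and 4.93%. The third segment of the unproductive class was *Traj23* in WT (4.54%) and *Traj31* in SKG (4.83%). In *Trav11*, *Traj18* and *Traj32* led both classes of both libraries.

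*Traj18* joins *Trav11* in the invariant α-chain of iNKT cells. It made up 9.43% of productive and 11.2% of unproductive WT *Trav11* sequences, and 9.95% and 10.3% of the SKG ones. The productive share of *Traj18* was 50.9% and 54.8% in those libraries, against 70.0% and 71.55% in *Trav19* and 56.4% and 69.6% in *Trav9d-3* (WT, then SKG). The *Trav11* values are thus slightly below the productive share of all segments in both libraries. *Traj33*, which forms the invariant chain of MAIT cells with another V gene, was productive in 47.3% to 70.5% of its sequences. Neither segment passed the test described below.

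**Figure D1:**
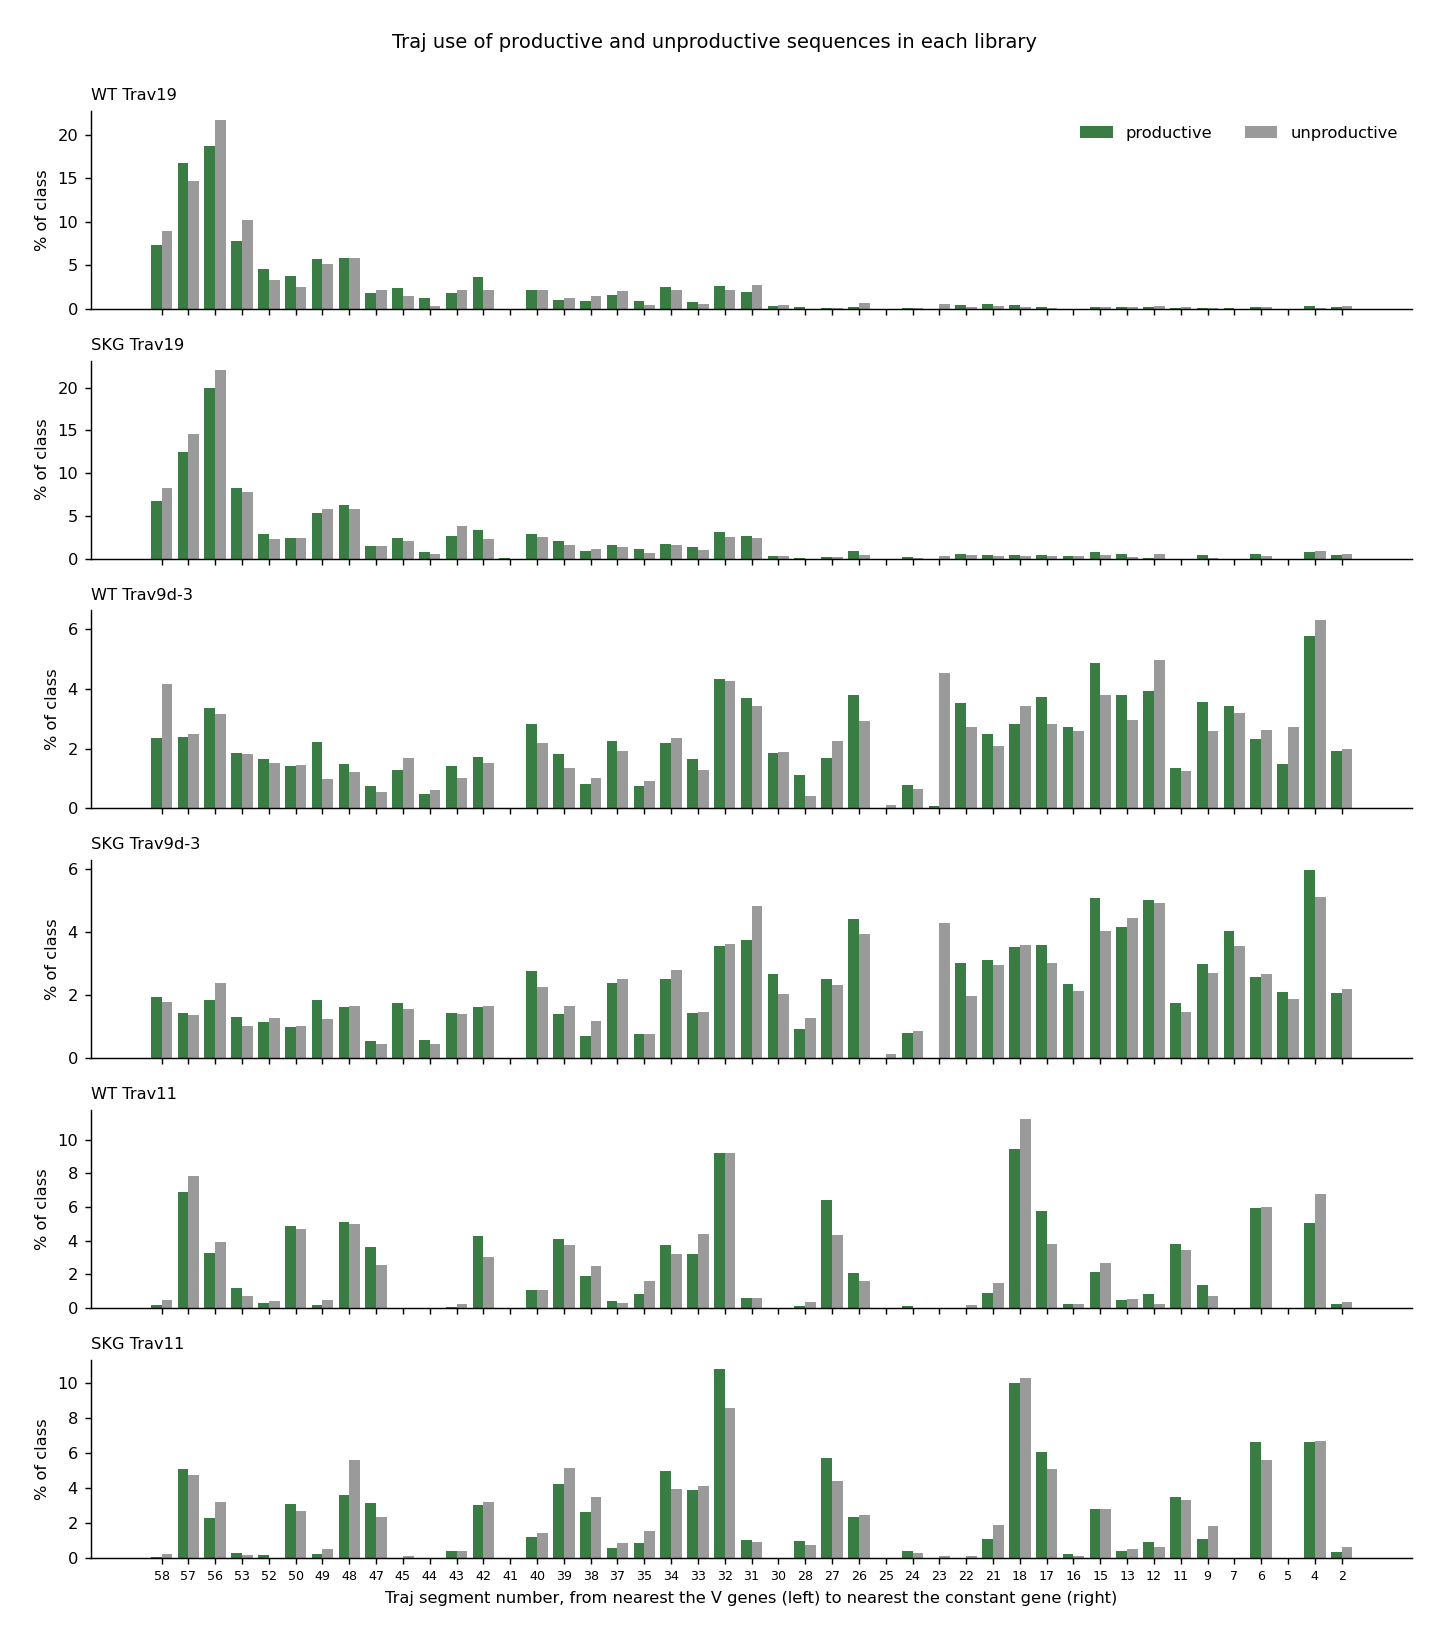
Share of productive (green) and unproductive (grey) sequences with each *Traj* segment that had at least 50 sequences in 1 library, as a percent of the class, 1 panel per library with its own vertical scale. The paired bars follow each other closely in all panels, and the grey bar at *Traj23* in the *Trav9d-3* libraries, at 4.54% (WT) and 4.29% (SKG), has almost no green partner.

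Across segments, Spearman's rho between the shares of the 2 classes was 0.915 (43 segments) and 0.930 (41) in the WT and SKG *Trav19* libraries, 0.791 (44) and 0.855 (44) in *Trav9d-3*, and 0.945 (37) and 0.970 (39) in *Trav11*. The points of a library share its cells, primers and depth, and copies with errors were not separated, so these values are descriptions. The total variation distance is the percent of sequences of 1 class that would have to change segment to give the usage of the other class. It was 11.2% and 8.54% in *Trav19*, 11.97% and 8.56% in *Trav9d-3*, and 10.4% and 9.43% in *Trav11* (WT, then SKG), with a mean of 10.01% ± 1.42 (SD, n = 6 libraries). Without *Traj23*, a choice made after seeing the data, the *Trav9d-3* distances were 9.61% and 6.33%, and those of the other libraries were 8.40% to 11.02%.

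Among single segments, the widest difference in use in both *Trav9d-3* libraries was that of *Traj23* (productive minus unproductive share, −4.46 points in WT and −4.27 points in SKG). In the *Trav19* libraries, the difference for *Traj56* was −2.98 points in WT and −2.05 points in SKG, and that for *Traj58* was −1.58 and −1.48 points. *Traj57* went opposite ways in these 2 libraries, at 1.99 points in WT and −2.07 points in SKG. In the *Trav11* libraries, *Traj27* was higher in the productive class by 2.08 points in WT and 1.35 points in SKG. Other wide differences there were near 0 in the paired library. *Traj32* was at 2.24 points in SKG and 0.03 in WT, *Traj48* at −1.98 in SKG and 0.08 in WT, and *Traj4* at −1.76 in WT and −0.08 in SKG.

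Whether productive joins reached farther along the locus than unproductive joins was examined through the share of distal segments. In WT *Trav19* 4.33% of productive and 4.48% of unproductive sequences were distal, and in SKG *Trav19* 7.39% and 6.08%. In WT *Trav9d-3* the shares were 57.2% and 58.9%, and in SKG *Trav9d-3* 62.7% and 61.6%. In WT *Trav11* they were 44.9% and 43.9%, and in SKG *Trav11* 48.7% and 47.1%. Productive minus unproductive was therefore above 0 in 4 of 6 libraries, from −1.73 points (−2.11 to −1.35) in WT *Trav9d-3* to 1.60 points (1.22 to 1.97) in SKG *Trav11*. The mean difference was 0.52 points ± 1.26 (SD, n = 6), which did not pass an exact two-sided sign-flip permutation test over libraries (p = 0.375). With 6 libraries, 0.03125 is the smallest p this test can give.

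*Traj23* lies within the distal region, and the distal comparison turned on it. When *Traj23* was left out, the difference was above 0 in 6 of 6 libraries, at 0.35 and 1.65 points in *Trav19*, 0.19 and 2.82 points in *Trav9d-3*, and 1.02 and 1.64 points in *Trav11* (WT, then SKG). The mean was then 1.28 points ± 0.98 (SD, n = 6; exact two-sided sign-flip permutation p = 0.03125). The interval of 1 library, WT *Trav9d-3*, still held 0 (−0.20 to 0.58 points). The segment was singled out on these same libraries, and the value without it is not independent evidence of a distal shift. Without a boundary, the mean *Traj* number differed by −0.39 on average (productive minus unproductive, n = 6; exact sign-flip permutation p = 0.125) and by −0.47 without *Traj23* (exact sign-flip permutation p = 0.125).

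**Figure D2:**
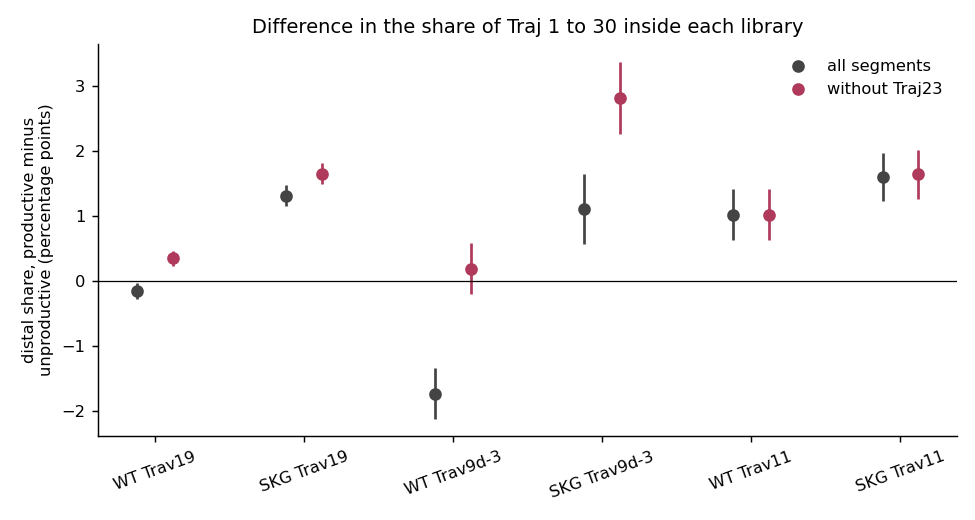
Share of distal segments (*Traj* 1 to 30) among productive minus unproductive sequences, in percentage points, for each library, with all segments (grey) and without *Traj23* (red). Bars are 95% Newcombe intervals of counting error. The WT *Trav19* and WT *Trav9d-3* points lie below 0 with all segments (−0.15 and −1.73) and above 0 without *Traj23* (0.35 and 0.19).

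*Traj23* was almost never productive. The segment was named as 1 of the 3 most used in the unproductive class of WT *Trav9d-3*, and its productive share was singled out after its values were seen. In *Trav19*, 8 of 984 WT sequences (0.813%) and 4 of 503 SKG sequences (0.795%) with *Traj23* were productive. In *Trav9d-3*, 135 of 4832 WT sequences (2.79%) and 18 of 1916 SKG sequences (0.940%) were productive. In *Trav11* the segment was rare, with 2 productive sequences of 100 in SKG and no sequence of either class in WT. Over all libraries 167 of 8335 sequences were productive (2.004%, 1.72 to 2.33), in libraries where 55.2% to 70.1% of all sequences were. The intact reading frame of the reference segment printed above and the label of a functional segment in its J assignment stood beside this low share. Junctions were not analysed here, so whether these sequences were out of frame or held a stop codon was not tested.

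The other members of the *Trav9* family in the same 2 lists gave values from sequences that the comparison had not used. In 5 V genes (*Trav9-2*, *Trav9-3*, *Trav9-4*, *Trav9d-2* and *Trav9d-4*) and 2 libraries, giving 10 combinations, the productive share of *Traj23* ran from 0.318% (2 of 630, SKG *Trav9d-2*) to 13.0% (232 of 1785, WT *Trav9-2*). Together, 973 of 19489 sequences were productive (4.99%). The share of all segments in these combinations was 61.03% to 72.2%, so *Traj23* was lower in all 10. The combinations of a library share its cells and its amplification. Of 43 segments with at least 50 sequences in every combination, 2 lay on the same side of the other segments in all 10, *Traj23* below them and *Traj39* above them, at 65.1% to 75.7% productive. With the target genes, however, *Traj39* lay above the other segments in 3 libraries and below them in 3.

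**Figure D3:**
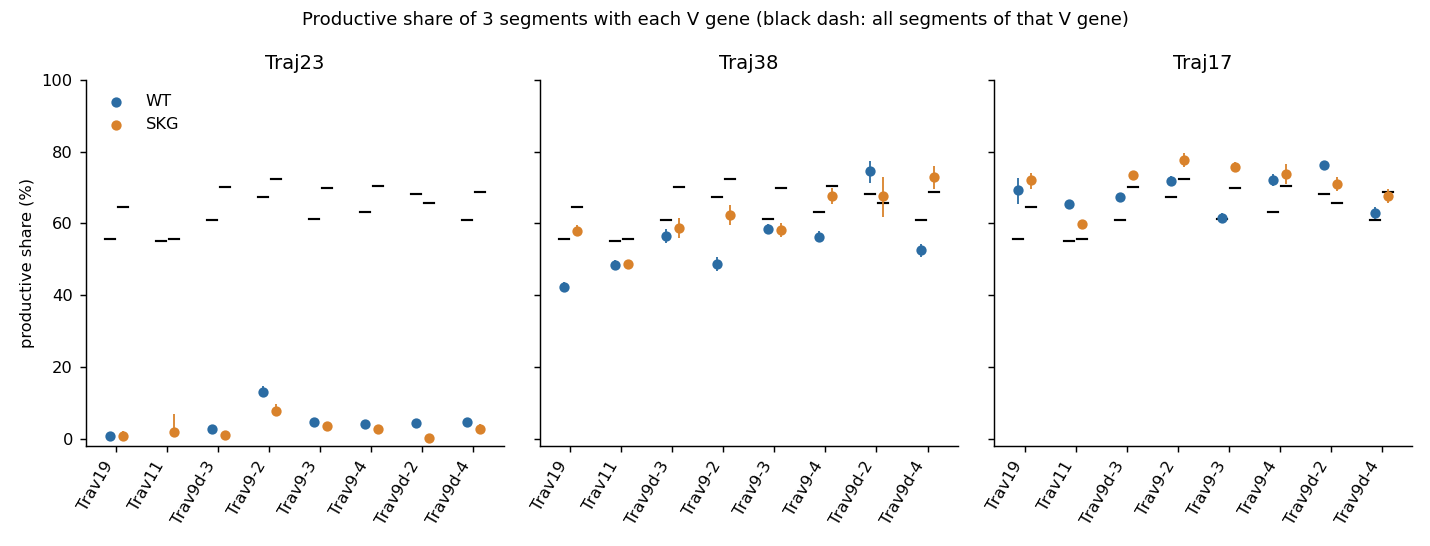
Productive share of *Traj23*, *Traj38* and *Traj17* with each V gene (percent of the sequences of the segment) in WT (blue) and SKG (orange) libraries, shown where at least 50 sequences were present, with 95% Wilson intervals. Black dashes mark the share over all segments of that V gene and library. *Traj23* stays at or below 13.0% throughout, whereas *Traj38* and *Traj17* lie closer to the dashes.

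*Traj25*, which carries the label ORF (an open reading frame with a departure from a functional segment), was not productive in any sequence. It was seen with *Trav9d-3* only among the target genes, at 0 of 119 WT and 0 of 61 SKG sequences. The 95% Wilson interval for 0 of 180 reaches 2.09%. With the other *Trav9* genes, 0 of 374 sequences were productive over the 5 combinations that had at least 50. The other segments with the label ORF had productive shares closer to those of functional segments. *Traj4* was productive in 47.7% to 78.8% of its sequences over the 6 libraries and *Traj47* in 51.9% to 73.2%. *Traj44* was productive in 54.4% to 82.2% over the 4 *Trav19* and *Trav9d-3* libraries. *Traj7* was productive in 62.7% and 72.5% of its *Trav9d-3* sequences and in 96.9% of 161 in WT *Trav19*, and *Traj41* had at least 50 sequences in SKG *Trav19* alone, where 94.8% of 97 were productive.

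By label, 39 segments seen were functional, 8 were ORF and 2 were pseudogenes. All 39 functional segments, 6 of the ORF segments and 0 of the pseudogenes reached 50 sequences in a library. The median productive share of ORF and functional segments was 80.5% and 58.4% in WT *Trav19*, 69.1% and 68.5% in SKG *Trav19*, 59.0% and 62.7% in WT *Trav9d-3*, 73.2% and 69.8% in SKG *Trav9d-3*, 55.6% and 54.9% in WT *Trav11*, and 59.1% and 54.2% in SKG *Trav11*. The medians rest on 2 to 5 ORF segments in a library. The label therefore did not order the segments one way in all libraries.

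The productive share spread more widely among rare segments than among common ones. Where a segment held 1% or more of its library, the SD of this share over segments was 7.19 and 4.004 points in *Trav19*, 11.5 and 11.98 points in *Trav9d-3*, and 7.63 and 6.66 points in *Trav11* (WT, then SKG). Among rarer segments with at least 50 sequences it was 21.1 to 27.7 points. *Traj23* set most of the spread of common *Trav9d-3* segments, which was 6.07 points in WT and 3.39 points in SKG without it. *Traj25* likewise set most of the spread of the 7 rare *Trav9d-3* segments, which was 10.01 points in WT and 5.75 points in SKG over the other 6. With both segments left out, the rare segments of the *Trav19* and *Trav11* libraries spread by 15.1 to 25.9 points. Extreme shares in single libraries came from rare segments, such as *Traj24* in WT *Trav11* (99.5% of 195), *Traj52* in SKG *Trav11* (97.4% of 228), *Traj16* in WT *Trav19* (91.2% of 114) and *Traj5* in WT *Trav19* (1.61% of 62). In the paired library of the other genotype *Traj24* was productive in 63.5% of 854 sequences, *Traj52* in 46.2% of 829 and *Traj16* in 68.9% of 1345. Other extreme shares recurred in both libraries of an amplicon. *Traj28* was productive in 94.6% of 574 WT and 97.95% of 244 SKG *Trav19* sequences, and *Traj22* was near 0 in both *Trav11* libraries.

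**Figure D4:**
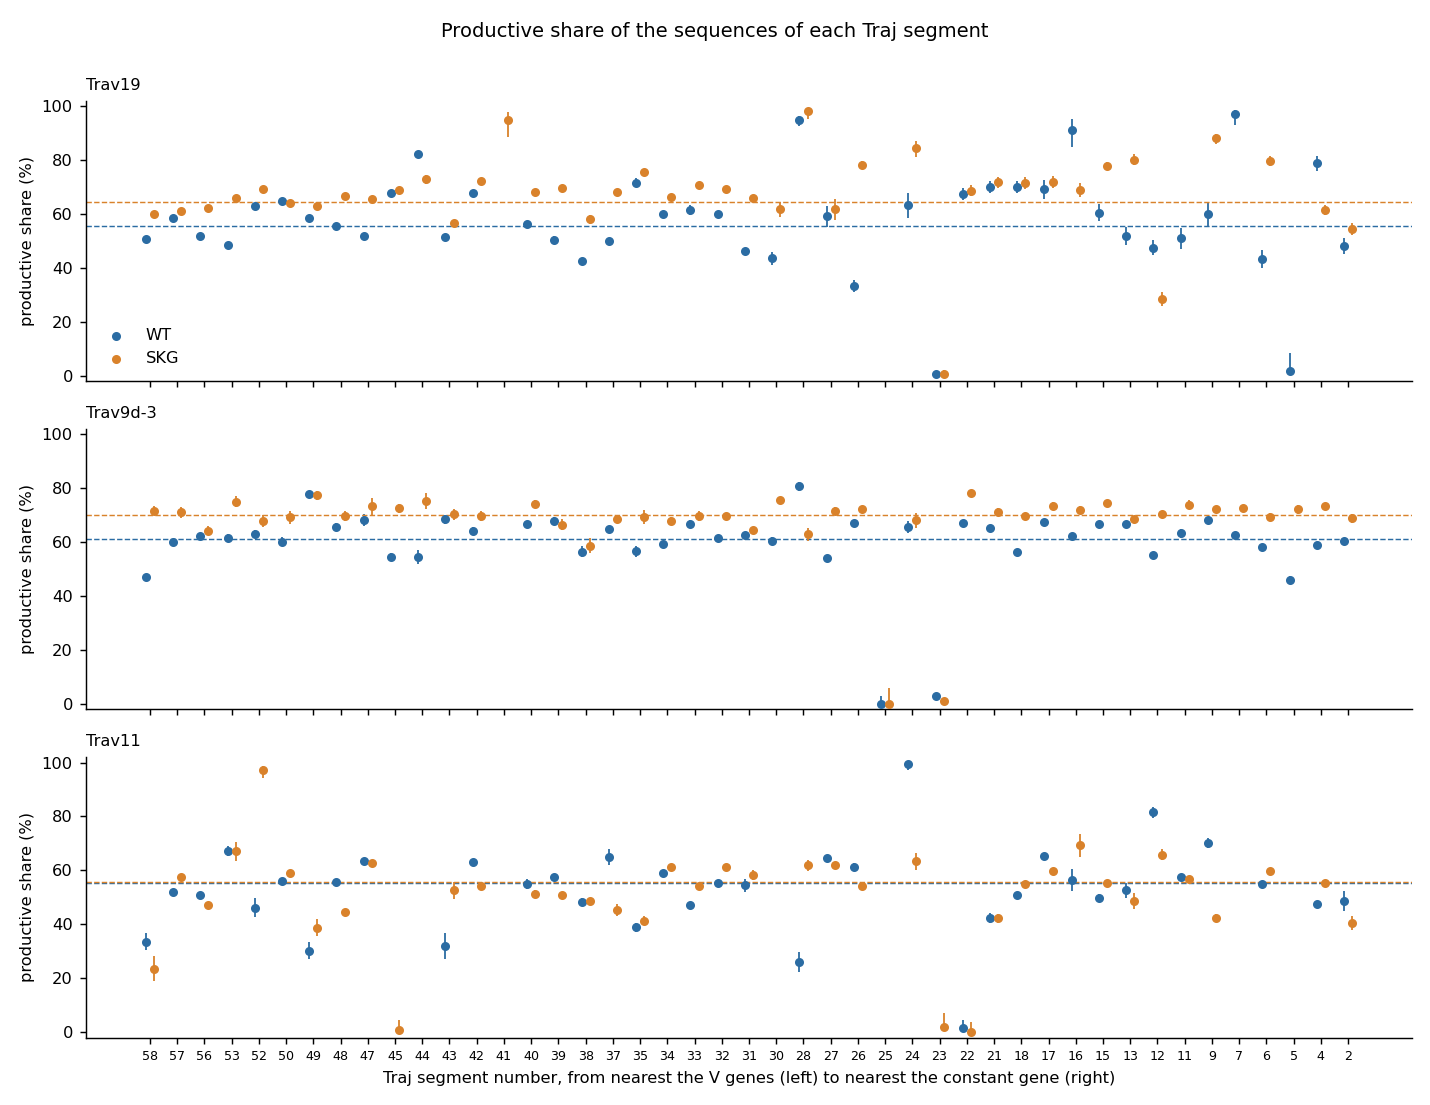
Productive share (percent) of each *Traj* segment with at least 50 sequences, by amplicon, in WT (blue) and SKG (orange) libraries. Bars are 95% Wilson intervals and dashed lines the share over all segments of the library. *Traj23* lies near 0 in all 5 libraries where it is shown, and *Traj22* lies near 0 in *Trav11* only (1.75% and 0%).

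To compare segments over libraries, the log2 odds ratio of productive to unproductive was taken for each segment against all other segments of its library. Of 49 segments, 36 had at least 50 sequences in all 6 libraries and were tested with limma. By this test 0 of the 36 (0%) passed an adjusted p of 0.05, whereas 4 (11.1%) had an unadjusted p under 0.05. An exact sign-flip permutation test gave 4 an unadjusted p under 0.05, and 0 passed after adjustment. The smallest p of that test is 0.03125, so a few segments at that value could not pass adjustment over 36. It is reached only when all 6 libraries lie on the same side of 0, as in 4 of 36 segments (11.1%). The 4 segments of the sign-flip test were therefore *Traj38*, *Traj17*, *Traj2* and *Traj16*. The 4 with an unadjusted limma p under 0.05 were *Traj38*, *Traj17*, *Traj2* and *Traj58*. The mean over libraries was above 0 for 24 segments and below 0 for 12.

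*Traj38* had a productive share below that of the other segments in 6 of 6 libraries. Its productive share was 42.4% and 57.9% in *Trav19*, 56.4% and 58.7% in *Trav9d-3*, and 48.4% and 48.6% in *Trav11* (WT, then SKG). Its mean log2 odds ratio was −0.50 (SE 0.11, n = 6; limma adjusted p = 0.0855). *Traj17* lay above the other segments in 6 of 6 libraries, at 69.2% and 72.0%, 67.5% and 73.5%, and 65.3% and 59.8% in the same order, with a mean log2 odds ratio of 0.48 (SE 0.12, n = 6; limma adjusted p = 0.0855). Neither passed the threshold. In the 10 combinations of the other *Trav9* genes, *Traj38* was lower than the other segments in 7 and *Traj17* was higher in 9. Such counts were not particular to them. *Traj9*, *Traj35*, *Traj47* and *Traj49* were also higher in 9, and *Traj11*, *Traj12* and *Traj48* were lower in 8. *Traj2* was lower in 6, and *Traj16* was lower in 7, opposite to its side with the target genes.

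*Traj2* was also below 0 in all 6 libraries (mean −0.41, SE 0.14; limma adjusted p = 0.284) and *Traj16* above 0 in all 6 (mean 0.74, SE 0.41; limma adjusted p = 0.496), and 1 library, WT *Trav19*, gave *Traj16* a log2 odds ratio of 2.99. *Traj58*, the segment of the locus nearest the V genes that was well used, was below 0 in 5 of 6 libraries, the exception being SKG *Trav9d-3* (mean −0.78, SE 0.29; limma adjusted p = 0.291). The remaining segments at the low end were *Traj22* (−1.98), *Traj43* (−0.31) and *Traj56* (−0.25), and those at the high end were *Traj24* (1.56), *Traj28* (1.32), *Traj52* (0.83) and *Traj9* (0.51). Each of these had libraries on both sides of 0, and single libraries set several of the means. Without WT *Trav11* the mean of *Traj24* was 0.53 and that of *Traj43* −0.09 (−0.46 without WT *Trav9d-3*), and without SKG *Trav11* those of *Traj52* and *Traj22* were 0.05 and −0.79. Without SKG *Trav19* the means of *Traj28* and *Traj9* were 0.66 and 0.21, and without SKG *Trav11* that of *Traj9* was 0.77. The mean of *Traj22* without WT *Trav11* was −1.18, that of *Traj28* 0.82 without WT *Trav19*, and that of *Traj16* 0.28 without WT *Trav19*.

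**Figure D5:**
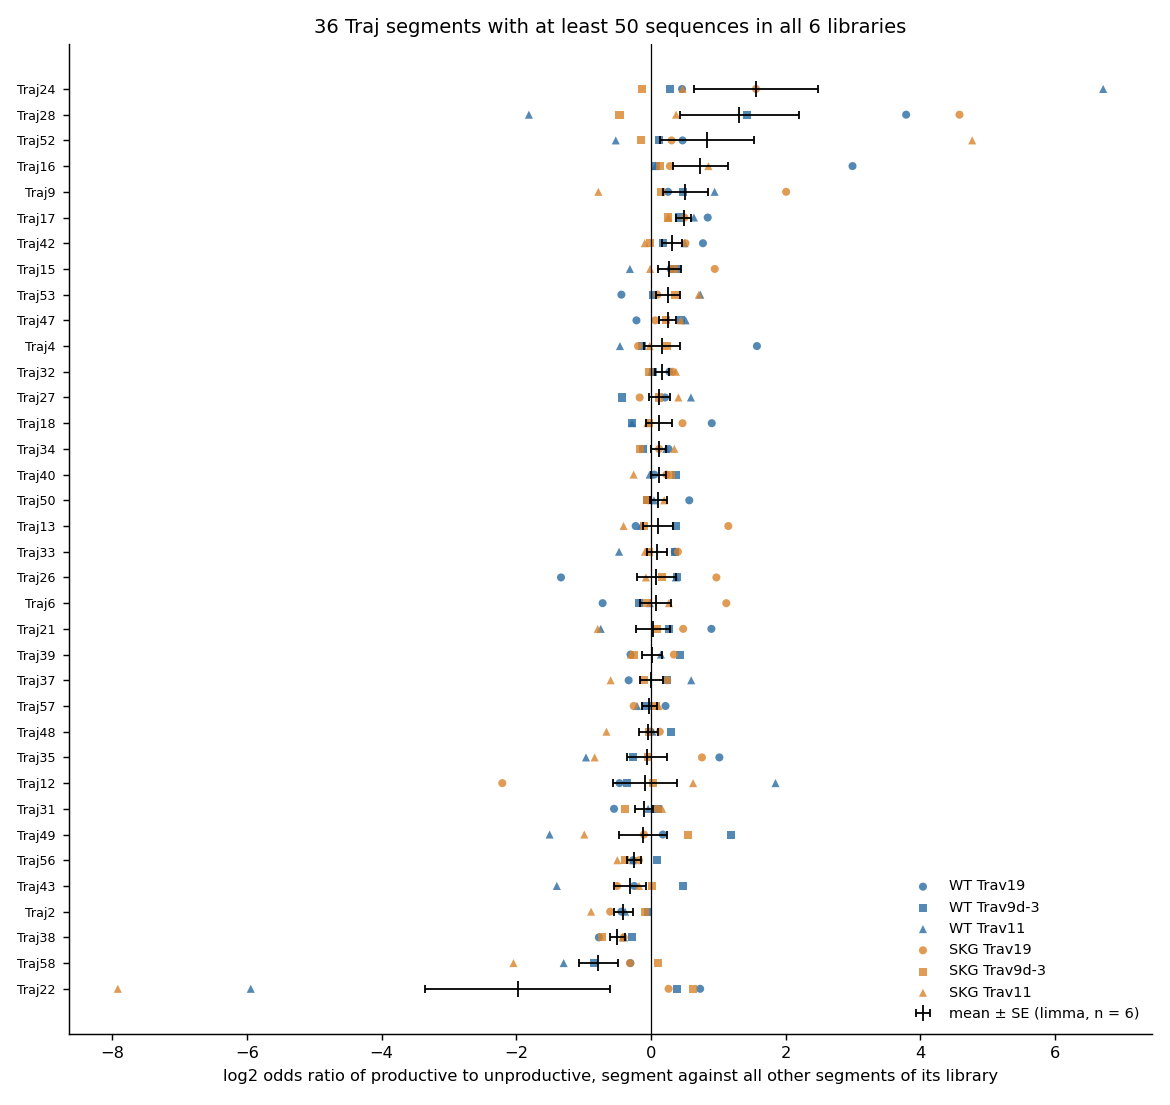
Log2 odds ratio of productive to unproductive for each of the 36 segments tested, against all other segments of its library, ordered by the mean. Colour marks genotype, shape marks amplicon, and black bars give the mean ± SE over 6 libraries from limma. *Traj38* (mean −0.50) and *Traj17* (mean 0.48) are tight around means away from 0, whereas *Traj22* and *Traj24* are set by 2 libraries and 1 library.

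*Traj23* could not enter that fit, as WT *Trav11* had none. When segments with at least 50 sequences in at least 4 libraries were fitted, 1 of 41 segments (2.44%) was called, and it was *Traj23*, with a mean log2 odds ratio of −6.85 (SE 0.42; limma adjusted p = 0.000225) and values below 0 in 5 of 5 libraries.

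Differences between amplicons in the productive share of a segment were tested with the limma F test of the amplicon. It called 2 of 36 segments (5.56%), *Traj22* and *Traj35*, with 8 at an unadjusted p under 0.05. Each amplicon had its own primer and libraries, so an effect of the V gene cannot be told apart from theirs. *Traj22* was productive in 67.4% of 1489 WT and 68.5% of 2022 SKG *Trav19* sequences and in 67.0% of 8587 and 78.2% of 4016 *Trav9d-3* sequences. In *Trav11* it was productive in 4 of 228 (1.75%) and 0 of 96 sequences, the latter with a Wilson interval reaching 3.85% (limma adjusted p = 0.00666). With inverse binomial variances as weights this call was lost (limma adjusted p = 0.642). The segment was rare in *Trav11*, and the number of rearrangements behind these sequences was not tested.

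*Traj35* had 1129 to 3906 sequences in a library and made up 0.439% to 1.63% of a class. Its productive share was 71.6% and 75.4% in *Trav19*, 56.7% and 69.4% in *Trav9d-3*, and 38.9% and 41.4% in *Trav11* (WT, then SKG). Both *Trav19* values were thus above the share of their library and both *Trav11* values below it (limma adjusted p = 0.0394). This call lay close to the threshold and was lost when segments needed at least 200 sequences in every library (limma adjusted p = 0.0508), with the weights (0.0535) and with centring on the median segment (0.0829). *Traj49* (limma adjusted p = 0.0597), *Traj21* (0.0614) and *Traj28* (0.0704) came next and did not pass. *Traj21* was productive in 69.9% and 71.7% of *Trav19* sequences and in 42.5% and 42.2% of *Trav11* sequences, and *Traj49* in 77.9% and 77.4% of *Trav9d-3* sequences and in 30.3% and 38.8% of *Trav11* sequences.

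Log2 odds ratios of the 36 segments followed each other only weakly between libraries. Spearman's rho was 0.382, 0.206 and 0.465 between the 2 libraries of the *Trav19*, *Trav9d-3* and *Trav11* amplicons. It was −0.232 to 0.0901 over the 6 pairs of the same genotype with different amplicons and −0.160 to 0.416 over the 6 pairs that shared neither. The segments of a library share its depth, and the 15 pairs reuse the same 6 libraries, so the values are given as descriptions.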

How the data were processed

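The authors sequenced *Trav19*, *Trav9* and *Trav11* amplicons from sorted thymocytes, 1 library per genotype. According to the methods, they assembled clonal sequences with MiXCR, trimmed primers with cutadapt (version 1.13 in the submitters' processing notes), removed exact duplicates and used IMGT/HighV-QUEST to assign genes. In the deposited lists, each sequence has its identifier, its functionality text and its V and J calls, with no read count. Shares here are of distinct sequences, which are not reads or cells, and duplicate removal evens out abundant rearrangements. The labels name the mm10 build. Germline sequences here came from NCBIM37.

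Sequences were counted per *Traj* segment and class in each library. At most 99 sequences in a list named several *Traj* genes, and 9 had a delta J assignment; these were left out. Log2 odds ratios, with 0.5 added to each count, were fitted with limma 3.58.1 (R 4.3.3; lmFit, eBayes) and p-values were adjusted by Benjamini-Hochberg over all segments tested. Distal shares were compared with exact two-sided sign-flip permutation tests over the 6 libraries. For segment means and sign-flip tests, libraries of different amplicons and genotypes were the replicates, so p-values measure the spread between these libraries. For the amplicon F test, the WT and SKG libraries of an amplicon were the replicates. Named segments were *Traj18*, *Traj33*, the 3 most used in each class, the 6 highest and 6 lowest means, ORF or pseudogene segments with at least 50 sequences in a library, and the 6 lowest p of the amplicon test. Segments and lists were chosen with earlier results of these data known. The calculations were tested on simulated data. Alternatives were other V and J filters, minimums, weights, centrings, distal boundaries and tests, and leaving out each library. Python 3.11.15, pandas 2.3.3, scipy 1.17.1 and matplotlib 3.10.9 were used.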

Additional observations from a re-analysis of the deposited data

Results flagged for a closer look

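Of 29 sets of 6 library values examined, 26 of them log2 odds ratios of a segment and 3 of them measures of a whole library, 4 had a library far from the others by Dixon's test, in which the gap to the nearest value is divided by the whole range. About 1 set in 20 passes by chance when sets are not picked by their values. Some of these segments were named through high or low means, which a single library can set. That rate therefore does not apply to them. The ratio was 0.657 for *Traj4* in WT *Trav19* (log2 odds ratio 1.57), 0.732 for *Traj16* in WT *Trav19* (2.99), 0.752 for *Traj24* in WT *Trav11* (6.72) and 0.813 for *Traj52* in SKG *Trav11* (4.77). These segments had 845, 114, 195 and 228 sequences in those libraries.

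Between amplicons, the log2 odds ratio differed for *Traj22* (limma F = 78.3, adjusted p = 0.00666; amplicon means 0.50 in *Trav19*, 0.51 in *Trav9d-3* and −6.93 in *Trav11*) and for *Traj35* (limma F = 27.1, adjusted p = 0.0394; means 0.89, −0.15 and −0.90).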

How the results depend on the processing

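The mean distal difference and the mean *Traj* number difference kept their sign under the alternatives run, but the libraries did not. The distal difference was above 0 in 4 of 6 libraries, in 3 of 6 with every V assignment, in 5 of 6 with *Traj* 1 to 20 as distal (mean 0.90 points) and in 2 of 6 with *Traj* 1 to 40 (mean 0.59 points, exact permutation p = 0.5625). The mean distal difference ran from 0.04 points (every V assignment) to 1.28 points (without *Traj23*, chosen after seeing the data, which passed the test at p = 0.03125), and from 0.31 to 0.98 points when each library was left out, with no exact permutation p below 0.125. The highest of these means was without WT *Trav9d-3*. The mean *Traj* number difference ran from −0.51 to −0.23 and the distance from 9.62% to 10.3% without each library in turn, the former nearest 0 without SKG *Trav19*. With 5 libraries the sign-flip test cannot go below 0.0625.

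The count of segments called by limma was 0 and became 1 with every V assignment (*Traj38*), 5 with inverse binomial variance as weights (*Traj58*, *Traj56*, *Traj42*, *Traj38* and *Traj17*) and 1 with at least 50 sequences in at least 4 libraries (*Traj23*). Leaving out each library gave 0 to 1, the 1 being *Traj23* without WT *Trav11*, when 38 segments could be tested. The count of segments differing between amplicons was 2 and became 6 with every V assignment (*Traj58*, *Traj49*, *Traj35*, *Traj28*, *Traj22* and *Traj21*), 0 with at least 200 sequences in all 6 libraries (33 segments, *Traj22* not among them and *Traj35* tested and lost), 0 with the weights (both lost), and 1 with centring on the median (*Traj22*). The mean of *Traj22* reversed to 0.44 with the weights, which give its rare *Trav11* sequences less influence. Of 213 segment means under alternatives, 207 kept their direction and side of the threshold, 5 passed the threshold and 1 reversed.

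The comparison of classes is itself paired within libraries, and with the amplicon as a random block limma called 0 segments. Rare segments limit what can be read, since the number of independent rearrangements behind their sequences was not analysed here.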
